A study of Mus musculus with 6 samples.

Results

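The members are the genes of the mitochondrial respiratory chain and ATP synthase that the nucleus encodes, taken from the RNA-seq table by symbol. A row was a member if its symbol began with Nduf followed by a, b, c, s or v and a number, was Sdha, Sdhb, Sdhc or Sdhd, or began with Uqcr, Cox4 to Cox8, or Atp5. The rule found 84 of 23337 genes, and 76 of them, among 9653 genes in all, had enough reads for a test. The 8 others, 7 of them in complex IV, are given by their reads. RNA-seq was performed on germinal center (GC) B cells from mixed bone marrow (BM) chimeras on a C57BL/6 background, left to reconstitute for 8 weeks, immunized with NP-CGG in alum and taken at day 11. The gate, with 50000 sorted cells per sample, was B220+ GL7+ Fas+ and low in CD38 and IgD. The 3 WT samples (replicates 1, 3 and 5) came from donor cells labelled CD45.1/2, and the 3 Hvem-/- samples (replicates 2, 4 and 6) from CD45.2 donor cells that lack HVEM (herpesvirus entry mediator, encoded by Tnfrsf14), so genotype and donor line cannot be told apart. WT and Hvem-/- cells shared chimeras according to the paper, but the sources used here do not say which samples came from the same mouse, nor the age or sex behind each sample. The study used adult animals, with males and females among its donors and recipients. Nothing states that the samples of a genotype came from separate mice, and the p-values below cover no more than the spread between these 3 and 3 samples.

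The respiratory chain passes electrons from NADH through complex I, or from succinate through complex II, to ubiquinone, then through complex III and cytochrome c to complex IV, where oxygen is reduced to water. Complexes I, III and IV pump protons across the inner mitochondrial membrane, and ATP synthase (complex V) uses the gradient to make ATP. All complexes but complex II combine subunits encoded in the nucleus with a few encoded in mitochondrial DNA, and GC B cells divide rapidly and are known to rely on oxidative phosphorylation. Of 13 subunit genes of mitochondrial DNA looked for by symbol, 0 were rows of the table, so only the nuclear side was measured here.

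Complex I had 35 members, complex II 4, complex III 8, complex IV 18 (with Ndufa4, a subunit of complex IV despite its name) and complex V 15. The other 4 were Cox7a2l, a factor that joins complexes III and IV into supercomplexes, Atp5s and Atp5sl, now named Dmac2l and Dmac2, and Cox4nb, now named Emc8, which belongs to a complex of the endoplasmic reticulum and not to the respiratory chain.

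Reads assigned to genes ranged from 2557741 to 3636163 in the WT libraries and from 2505918 to 3321048 in the Hvem-/- libraries, with medians of 2821732 and 2509547. The read counts of Tnfrsf14 were 13, 11 and 17 (WT) against 0, 0 and 4 (knockout), given here and throughout in the order of the replicate numbers (log2 fold change -3.04, standard error (SE) 0.938, adjusted p = 0.186 in edgeR). All 13 GC B cell markers looked for were tested, with a median log2 fold change of -0.0021, and 0 passed the adjusted threshold. At an unadjusted p under 0.05, 4 of the 13 were lower (S1pr2 -0.31, Cd79a -0.45, Cd79b -0.35 and Pax5 -0.30), against 5.21% of all tested genes. Another 2 were higher (Mybl1 0.43 and Rgs13 0.86), against 6.79% of all tested genes. The smallest adjusted p of the 13 was 0.0191 in edgeR, and their part in the member values was not tested. Myeloid and erythroid markers were highest in Hvem-/- replicate 2, with WT replicate 1 next. The 12 myeloid markers summed to 336 CPM (reads scaled to a common library total) in the first and 269 in the second, with the lowest library at 165, and the 6 erythroid markers to 138 and 116 CPM, against 33.1 to 66.6 in the other 4, while C1qa, Hba-a1 and Hba-a2 of these lists are listed at 0 in all libraries. The 12 T cell markers summed to 152 to 173 CPM in WT and 84.6 to 144 in Hvem-/-, lowest in replicate 6. The 9 tested had a median log2 fold change of -0.85, with 7 below 0 and 2 above. At an unadjusted p under 0.05, 3 were lower (Cd3e -0.85, Cd4 -1.08 and Cd28 -1.105), against 5.21% of all tested genes, and 0 were higher. The smallest adjusted p of these markers was 0.129 in edgeR, and their part in the member values was not tested.

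What the members share at their start sites is shown first, because respiratory chain genes are textbook targets of nuclear respiratory factor 1 (NRF-1), of the ETS factor GABP (also called NRF-2) and of YY1. RefSeq promoters of the mouse genome build GRCm38.p6 (250 bases before to 50 after the start) were matched by symbol for 69 of the 84 members. The NRF-1 core CGCNTGCG, searched on both strands as all motifs were, was found in 24 of the 69 promoters (34.8%), in 8.42% of all 27025 promoters and in 11.4% of the 17491 of protein-coding genes. The ETS/GABP motif CCGGAAG was found in 15 (21.7%), against 9.12% and 11.9%, and the YY1 motif AAGATGGCG in 7 (10.1%), against 1.49% and 1.94%. At least 1 of these 3 motifs was present in 38 members (55.1%), against 16.9% of all promoters and 22.3% of those of protein-coding genes. CCAAT was in 44.9% of member promoters and 37.9% of all, and TATAAA in 10.1% and 14.2%. Such a match is a string of letters and does not show that a factor binds.

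The 5 promoters with at least 2 of these matches in the 120 bases before the start are printed because they show the motifs most densely, 5′ to 3′ on the strand of the gene, with matches on either strand in capitals. They belong to Cox6a1 (chr5:115348959-115349078, minus strand), Ndufa8 (chr2:36049339-36049458, minus strand), Ndufb4 (chr16:37654369-37654488, minus strand), Sdha (chr13:74350241-74350360, minus strand) and Sdhd (chr9:50603850-50603969, minus strand). In Cox6a1 and Sdhd the first capitals are an NRF-1 core and the second an ETS/GABP motif, and in the other promoters all are NRF-1 cores.
Cox6a1: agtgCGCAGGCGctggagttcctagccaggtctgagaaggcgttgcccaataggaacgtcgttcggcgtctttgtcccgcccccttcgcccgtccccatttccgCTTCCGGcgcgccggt
Ndufa8: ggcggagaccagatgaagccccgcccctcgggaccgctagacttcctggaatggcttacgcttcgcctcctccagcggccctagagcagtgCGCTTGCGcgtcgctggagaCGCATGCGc
Ndufb4: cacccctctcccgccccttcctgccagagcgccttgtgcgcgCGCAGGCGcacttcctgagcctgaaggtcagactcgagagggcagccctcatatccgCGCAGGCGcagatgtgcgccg
Sdha: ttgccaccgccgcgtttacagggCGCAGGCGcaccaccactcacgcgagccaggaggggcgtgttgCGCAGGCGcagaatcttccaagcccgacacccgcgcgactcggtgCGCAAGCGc
Sdhd: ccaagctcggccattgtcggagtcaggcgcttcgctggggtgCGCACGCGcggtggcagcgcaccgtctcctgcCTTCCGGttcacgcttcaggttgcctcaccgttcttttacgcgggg

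Levels of the members were compared with each other as normalized read counts per kilobase of transcript, averaged over the 6 libraries. Atp5b, the catalytic beta subunit of ATP synthase, had the highest level at 3142 ± 182 (SD, n = 6 samples), and Atp5a1, its alpha subunit, came second at 855 ± 81.1. These were the only members whose 6 values were separate from those of the next member in the order. The other 73 of 75 neighbouring pairs had overlapping values, among them Atp5c1, the gamma subunit of the central stalk, at 522 and Atp5g3, which encodes the c subunit of the rotor ring, at 519.8. Cox7c (complex IV) followed at 411, Cox7a2l at 387, Sdha, the flavoprotein of succinate dehydrogenase, at 364 and Uqcrh, the hinge protein of complex III, at 336. Of the 10 highest members, 5 belonged to complex V, 2 to complex IV, 1 to complex III and 0 to complex I. The lowest tested members were Ndufv3 (17.4), Uqcrq (9.71) and Atp5g1 (8.60), so that the order spanned 365-fold. Every level rests on the annotated transcript chosen for the gene, of 4715 bases for Atp5g1, 1521 for Uqcrq and 1582 for Ndufv3, so order and span depend on that choice. How reads shared with near-identical copies were assigned is not given in the sources used here.

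**Figure D1:**
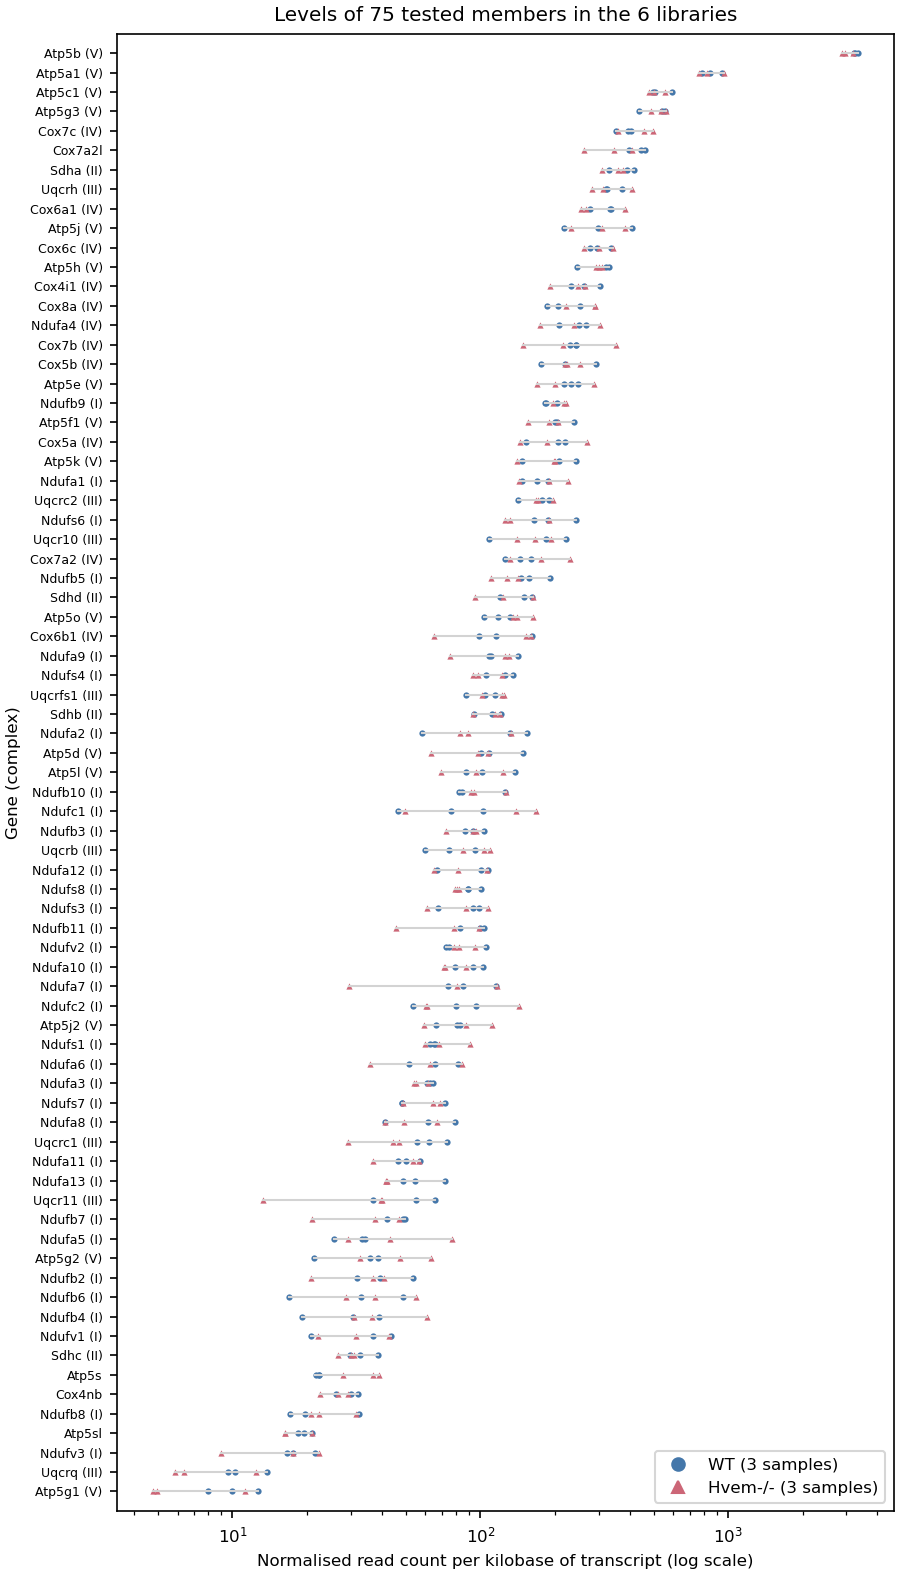
Normalized read count per kilobase of transcript (log axis) of 75 tested members in the 3 WT (circles) and 3 Hvem-/- (triangles) libraries, ordered by the mean over all 6, with the complex in parentheses. Atp5b and Atp5a1 stand clear of the rest, while the symbols of both genotypes mix in most rows.

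Whether loss of HVEM changed these genes was asked with edgeR's quasi-likelihood test, fitted on all 9653 tested genes with adjustment over all of them and a threshold of 0.01. None of the 76 tested members passed, and the smallest adjusted p was 0.268 (0 passed in DESeq2 either). Over all genes 26 passed (0.269%), 23 of them higher in Hvem-/- and 3 lower. At an unadjusted p under 0.05, 2 members (2.63%) were lower, Uqcrc1 and Cox7a2l, against 5.21% of all tested genes, and 0 were higher, against 6.79%. DESeq2 also gave 2 members at that level. In bulk RNA, fewer cells of a type and less RNA per cell cannot be told apart, and this holds for every value here.

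The fold changes of the members were small. Their median log2 fold change (Hvem-/- over WT) was -0.0641, against -0.0058 over all tested genes, and the middle range between the quartiles ran from -0.195 to 0.0947, against -0.227 to 0.196. The values ran from -0.73 (Uqcr11) to 0.67 (Ndufc1), and 68 of 76 lay within 0.5 of 0. The 95% interval lay wholly within 1 log2 unit of 0 for 60 members (78.9%), against 69.3% of all tested genes. For most members a change of more than 2-fold in either direction thus fell outside the interval. How far smaller changes were resolved by 3 samples a genotype differed between members. The interval was narrow for members with many reads, such as Atp5b (-0.329 to 0.073) and Sdha (-0.372 to 0.124). It was wider for others, such as Atp5d (-0.92 to 0.104). The median standard error was 0.243 for the members and 0.242 for all tested genes. In simulated data with the same depths, the test at adjusted p under 0.01 recovered 24% of genes changed 1.5-fold, 56% of those changed 2-fold and 80% of those changed 3-fold, so 1.5-fold changes would mostly have been missed. The simulated spread followed the general trend of spread with level, not the spread of single genes or libraries. The changed genes were drawn from all genes that passed the filter and not from the members. Values below 0 were found for 47 members (61.8%), against 50.8% of all tested genes, and for 46.1% of the members without Hvem-/- replicate 2.

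**Figure D2:**
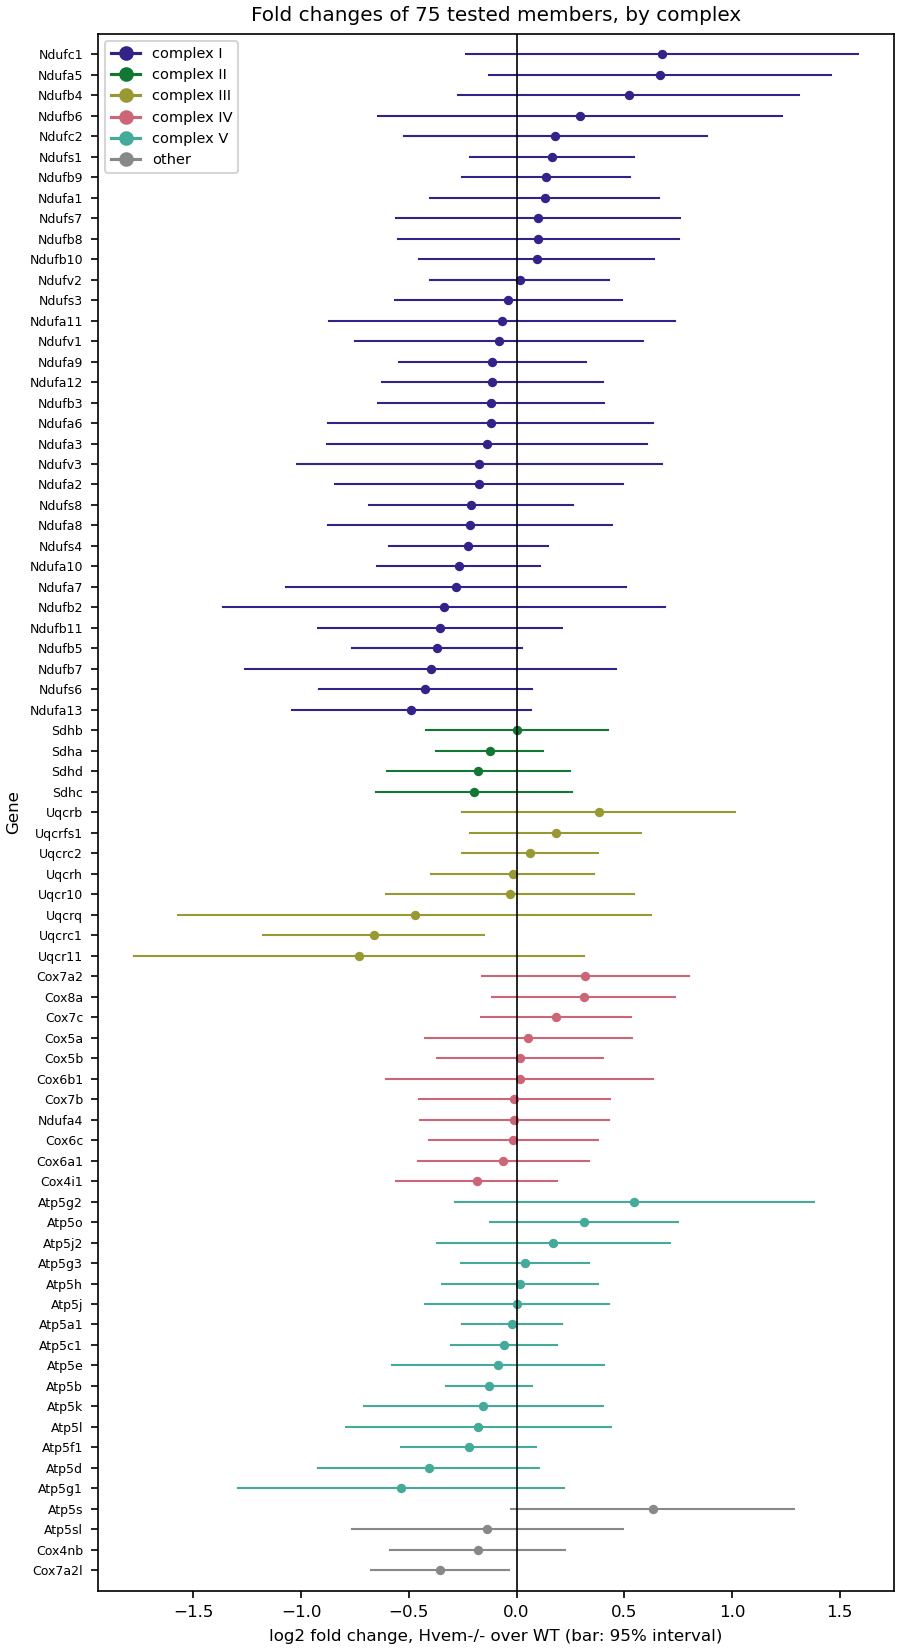
Log2 fold change of 75 tested members (point) with its 95% interval from edgeR (bar), grouped by complex; values above 0 are higher in Hvem-/- GC B cells. Only the bars of Uqcrc1 and Cox7a2l do not reach 0, and most points lie within 0.5 of it.

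Complex I, the NADH dehydrogenase, had 34 tested subunits with a median log2 fold change of -0.12, 22 below 0 and 12 above, and 0 with an unadjusted p under 0.05. The 7 core subunits, which carry the flavin, the iron-sulfur clusters and the ubiquinone site, had a median of -0.04, and the 27 tested accessory subunits one of -0.12. Ndufb5, an accessory subunit of the membrane arm on chromosome 3 (GRCm38, 32736990 to 32751566), had the smallest p of the complex. Its normalized counts were 157, 205 and 169.5 in WT and 138, 154 and 119 in Hvem-/-. The groups did not overlap, but the gap between the lowest WT and the highest Hvem-/- sample was narrow, and the log2 fold change was -0.37 (SE 0.189, adjusted p = 0.454 in edgeR).

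Ndufc1, a small membrane subunit, had the highest log2 fold change of all members. It had 14.6, 32.2 and 23.9 normalized counts in WT and 15.6, 53.0 and 43.7 in Hvem-/-. Its low sample in Hvem-/-, replicate 2, lay within the WT values, and the log2 fold change of 0.67 had an SE of 0.438 (adjusted p = 0.577 in edgeR). Ndufa5 followed at 0.67 (SE 0.383, adjusted p = 0.517 in edgeR) with one high library, Hvem-/- replicate 6, at 67.4 normalized counts against 22.5 to 38.0 in the other 5. Ndufs5, an accessory subunit, is listed at 0 in all 6 libraries.

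Complex II, succinate dehydrogenase, is also an enzyme of the citric acid cycle. Its 4 subunits had a median log2 fold change of -0.15, with 3 of them below 0. Sdha had 1128, 1208 and 960.4 normalized counts in WT and 899, 1095 and 1038 in Hvem-/-. The groups overlapped, and the log2 fold change was -0.12 (SE 0.120, 95% interval -0.372 to 0.124, adjusted p = 0.735 in edgeR). Sdhb, which carries the iron-sulfur clusters, was at 0.0024, Sdhd at -0.18 and Sdhc at -0.20, the last 2 being the subunits that anchor the enzyme in the membrane.

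Complex III, the cytochrome bc1 complex, had 8 tested subunits with a median log2 fold change of -0.02 and the lowest p of all members, that of Uqcrc1. This gene on chromosome 9 (108936633 to 108949623) encodes a core protein of the matrix side. Its normalized counts were 103, 92.1 and 121 in WT and 73.5, 77.7 and 48.5 in Hvem-/-. All Hvem-/- samples lay below all WT samples, with Hvem-/- replicate 6 the lowest. Means were 105 ± 14.6 and 66.6 ± 15.8 (SD, n = 3 samples each), and the log2 fold change was -0.66 (SE 0.247, 95% interval -1.18 to -0.149, unadjusted p = 0.0137 and adjusted p = 0.268 in edgeR). Its promoter held 2 NRF-1 cores, both after the start. The partner core protein Uqcrc2 differed little between genotypes, with a mean of 322 ± 47.5 in WT and 338 ± 29.2 in Hvem-/- and a log2 fold change of 0.06 (SE 0.152). Uqcrfs1, the Rieske iron-sulfur protein, was at 0.18 and Uqcrb at 0.38.

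Uqcrh had 203, 175 and 177 normalized counts in WT and 154, 224 and 170.2 in Hvem-/-, with the lowest and the highest value both in Hvem-/- (log2 fold change -0.02). The small subunit Uqcr11 had the lowest log2 fold change of all members. It had 29.3, 24.4 and 16.4 normalized counts in WT and 17.8, 17.7 and 5.91 in Hvem-/-. The groups overlapped at WT replicate 5, and at such counts the interval was wide (-0.73, SE 0.504, 95% interval -1.78 to 0.315, adjusted p = 0.601 in edgeR).

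Complex IV, cytochrome c oxidase, had 11 tested subunits with a median log2 fold change of 0.01, and 0 with an unadjusted p under 0.05. That median was -0.01 both with upper-quartile factors and with limma on log2 values, -0.02 without WT replicate 1 and -0.12 without Hvem-/- replicate 4. Several of its subunits exist as isoforms for particular tissues. A 0 in this table need not mean that a gene was silent, since Ndufs5, which every cell uses, is also listed at 0. Cox4i1, the ubiquitous isoform of subunit 4, had 201, 178 and 232 normalized counts in WT and 203, 189.9 and 147 in Hvem-/-, with overlapping groups (log2 fold change -0.19), whereas Cox4i2, the isoform of lung, had 1 read in all, in WT replicate 3. Cox6a1, the liver-type isoform, had 146 to 218 normalized counts over the 6 libraries, with both ends of that range in Hvem-/-, whereas Cox6a2, the isoform of heart and muscle, is listed at 0 in every library.

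Cox7a2, the liver-type isoform of subunit 7a, had 83.0, 105 and 95.6 normalized counts in WT and 86.9, 151 and 116 in Hvem-/-, with overlapping groups (log2 fold change 0.32, SE 0.232, adjusted p = 0.622 in edgeR). For the muscle isoform Cox7a1 the libraries held 0, 1 and 6 reads (WT) against 1, 0 and 3 (Hvem-/-). Cox8a, the ubiquitous isoform of subunit 8, had the smallest p of the complex. Its normalized counts were 139, 113 and 102 in WT and 121, 159 and 159.6 in Hvem-/-, overlapping at WT replicate 1 and Hvem-/- replicate 2 (log2 fold change 0.31, SE 0.205, adjusted p = 0.581 in edgeR). Cox8b, an isoform of heart and muscle, was at 0 reads in WT, and at 3, 1 and 0 in Hvem-/-, and Cox8c, known from testis, is listed at 0. Cox7b had 229, 243 and 243 normalized counts in WT and 148, 215 and 352 in Hvem-/-. The WT samples were close together and lay between the Hvem-/- samples (log2 fold change -0.01), and its testis isoform Cox7b2 is listed at 0.

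Cox6b1, the ubiquitous isoform of subunit 6b, had 99.6, 61.0 and 71.7 normalized counts in WT and 94.7, 98.9 and 40.2 in Hvem-/-. The groups overlapped (log2 fold change 0.01, -0.01 with upper-quartile factors and -0.07 with limma). Its testis isoform Cox6b2 had 8, 12 and 7 reads across the WT libraries, and 3, 4 and 0 across the Hvem-/- libraries, too few for the filter on low counts and so not tested. Cox7c, the subunit of complex IV with the most reads per kilobase, had 219, 191 and 213 normalized counts in WT and 194, 268 and 247 in Hvem-/-, again overlapping (log2 fold change 0.18, SE 0.168).

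Complex V, ATP synthase, had 15 tested subunits with a median log2 fold change of -0.06. The 5 subunits of the catalytic F1 head and central stalk all had values below 0, from -0.02 (Atp5a1) to -0.41 (Atp5d, the delta subunit), with a median of -0.09, and the 10 others a median of 0.0073. Atp5b, on chromosome 10 (128083273 to 128090391), was the member measured with the most reads. Its normalized counts were 6160, 6425 and 6247 in WT and 5509, 6092 and 5691 in Hvem-/-. The groups did not overlap, although the means of 6277 ± 135 and 5764 ± 298 (SD, n = 3 samples each) were close, and the log2 fold change was -0.13 (SE 0.0968, 95% interval -0.329 to 0.073, adjusted p = 0.642 in edgeR). Atp5d had 139, 101 and 93.3 normalized counts in WT and 100.2, 91.0 and 59.1 in Hvem-/-. The groups overlapped, and the log2 fold change was -0.41 (SE 0.247, adjusted p = 0.550 in edgeR).

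Atp5g1, Atp5g2 and Atp5g3 encode the same mature c subunit with different import sequences. Atp5g3 had 316, 391 and 403 normalized counts in WT and 352, 404 and 389 in Hvem-/- (log2 fold change 0.04, SE 0.144). Atp5g1 had 46.9, 37.7 and 59.7 in WT and 23.4, 53.0 and 22.5 in Hvem-/- (log2 fold change -0.54, SE 0.365, adjusted p = 0.596 in edgeR), and its value ran from -1.08 (without Hvem-/- replicate 4) to -0.33 (without Hvem-/- replicate 6). Atp5g2 had 28.3, 15.5 and 26.1 in WT and 34.5, 23.8 and 46.1 in Hvem-/- (log2 fold change 0.55, SE 0.402, adjusted p = 0.627 in edgeR). The groups overlapped for all 3 genes, and the difference between Atp5g1 and Atp5g2 in direction was not tested. Atp5o, a subunit of the peripheral stalk, was one of the members whose genotypes did not overlap. It had 110.3, 86.6 and 98.6 normalized counts in WT and 118, 137 and 113 in Hvem-/- (log2 fold change 0.31, SE 0.211, adjusted p = 0.592 in edgeR).

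Among the 4 genes outside the complexes, Cox7a2l, on chromosome 17 (83501918 to 83517330), had the second lowest p of all members. Its normalized counts were 504, 520.4 and 449.6 in WT and 392, 463 and 296 in Hvem-/-. Hvem-/- replicate 4 lay above WT replicate 5, so the groups overlapped, and the log2 fold change was -0.36 (SE 0.154, 95% interval -0.675 to -0.037, unadjusted p = 0.0303 and adjusted p = 0.347 in edgeR). All Hvem-/- samples lay above all WT samples for Atp5s, with 33.2, 33.3 and 32.1 normalized counts in WT and 54.6, 41.5 and 57.9 in Hvem-/- (log2 fold change 0.63, SE 0.317, adjusted p = 0.438 in edgeR). Atp5sl (-0.14) and Cox4nb (-0.18) lay near 0.

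Counted over all members, the 3 Hvem-/- values lay below the 3 WT values for 5 tested members (6.58%), against 8.09% of all tested genes. They lay above them for 2 (2.63%), against 8.74% of all tested genes. The 5 were Uqcrc1, Ndufb5, Ndufa13, Ndufs8 and Atp5b, and the 2 were Atp5s and Atp5o. Ndufa13, an accessory subunit of complex I also known as GRIM-19, had 89.8, 61.0 and 68.0 normalized counts in WT and between 52.0 and 52.3 in the 3 Hvem-/- samples (log2 fold change -0.49, SE 0.267). Ndufs8, an iron-sulfur core subunit, had 98.6, 87.7 and 87.4 in WT and 79.1, 77.7 and 80.4 in Hvem-/- (log2 fold change -0.21, SE 0.228). Both shares lay below those of all genes, so separation of the genotypes was not more frequent among the members.

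**Figure D3:**
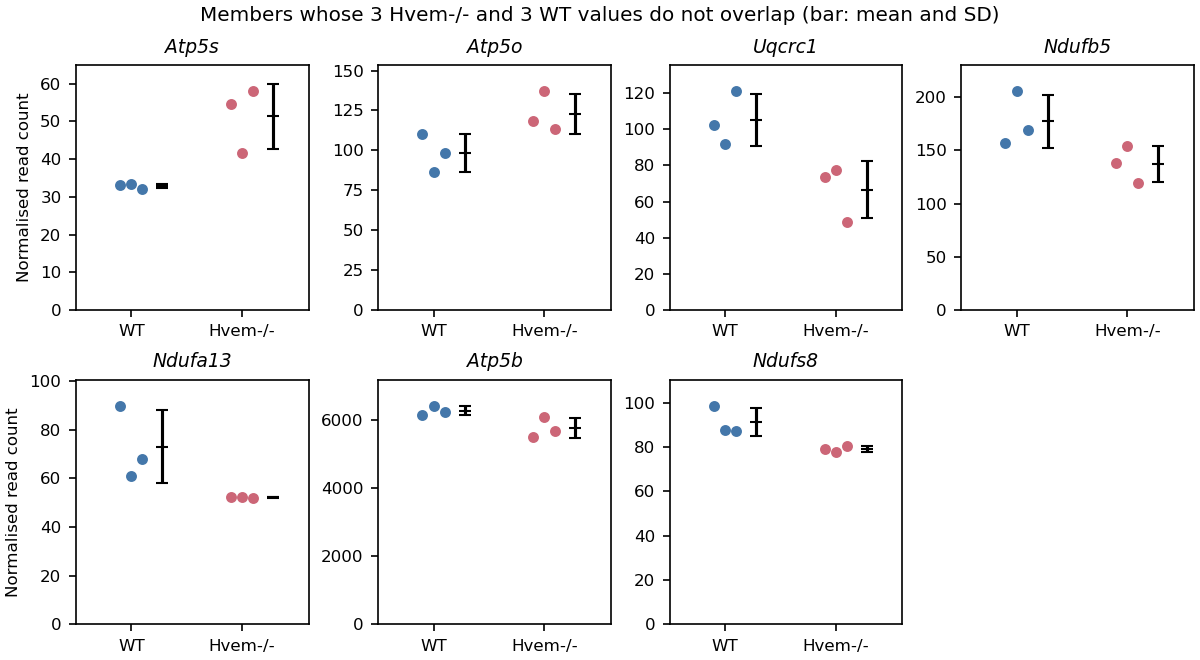
Normalized read counts (axes from 0) of the 7 members whose WT and Hvem-/- samples do not overlap, with points for samples and bars for the mean and SD of 3. Atp5s and Atp5o are higher in Hvem-/-, the other 5 lower, and the gap is narrow in Ndufb5, Atp5b, Ndufs8 and Atp5o.

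One library, Hvem-/- replicate 2, held low values of many members. Measured as log2 CPM against each gene's own mean over the 6 libraries, the median member stood at 0.03, 0.08 and 0.04 in WT replicates 1, 3 and 5 and at -0.15, 0.04 and 0.04 in Hvem-/- replicates 2, 4 and 6. The other Hvem-/- libraries lay within the WT values. In replicate 2, 56 of 76 members (73.7%) were below their own mean, against 47.7% of all tested genes, and in Hvem-/- replicates 4 and 6 the members below were 30 and 35. Replicate 2 was the lowest of the 6 libraries for 24 members (31.6%), against 15% of all tested genes, and the highest for 2. Over all tested genes, Hvem-/- replicate 6 was the library most often at an end, lowest for 25.6% and highest for 25%. For every other library these shares lay between 12.6% and 16.8%. Among the members, replicate 6 was the lowest for 18 (23.7%) and the highest for 14. The part of this spread in the values of single genes was not tested. The summed level of all members was 6553, 6986 and 6615 CPM in WT and 5935, 6629 and 6455 CPM in Hvem-/-, so the groups overlapped, with replicate 2 again the lowest. The sums of complex I were 1011, 1078 and 1076 CPM in WT and 953, 987 and 1016 CPM in Hvem-/-, overlapping at WT replicate 1 and Hvem-/- replicate 6. Those of complex IV were 609.6, 629 and 619 CPM in WT and 541, 715 and 652 CPM in Hvem-/-, so that all WT sums lay between the Hvem-/- sums. Those of complex V, of which Atp5b was the most abundant transcript, were 3813, 4112 and 3868 CPM in WT and 3470.4, 3810.1 and 3805 CPM in Hvem-/-, which did not overlap, though WT replicate 1 and Hvem-/- replicate 4 nearly met. Hvem-/- replicate 2 is also the library with the most myeloid and erythroid marker RNA, while WT replicate 1, the next in both, had a member median of 0.03, and the part of that RNA in the low member values was not tested.

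**Figure D4:**
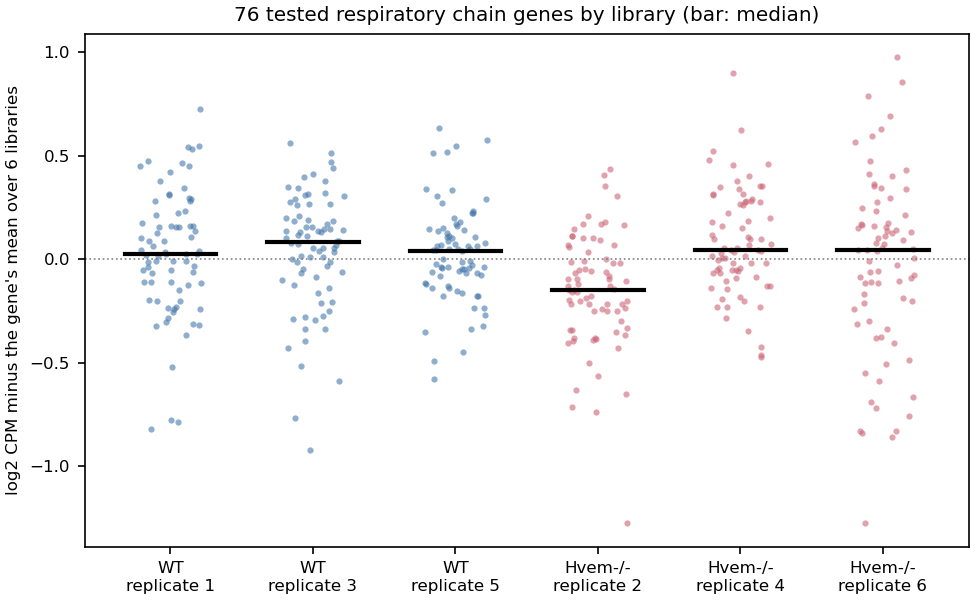
Log2 CPM of the 76 tested members minus each gene's mean over the 6 libraries (points), with the median of each library as a bar. The bar of Hvem-/- replicate 2 lies at -0.15, and the bars of the other 5 libraries lie between 0.03 and 0.08.

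With all libraries, a correction for GC content and transcript length took the members' median from -0.0641 to -0.0116. Leaving out Hvem-/- replicate 4 took it to -0.15. Hvem-/- replicate 2 was singled out by its low member values, so a higher median without it was built in and is no test. Without Hvem-/- replicate 2 the lean toward lower values was gone. Without the library, the median log2 fold change of the members was 0.0367, against -0.0084 over the 10033 genes tested, with 35 members below 0 (46.1%, against 50.9% of all) and 41 above. Uqcrc1 and Cox7a2l kept their values (-0.73 and -0.37), and Ndufc1 (1.04) and Ndufa5 (0.93) also had an unadjusted p under 0.05. At that level 2 members were thus lower (2.63%, against 6.88% of all tested genes) and 2 higher (2.63%, against 8.03%). Both shares lay below those of all tested genes. The smallest adjusted p among the members was 0.212, so 0 members passed in this comparison too. The medians of complexes III and V changed sign without this library (0.08 and 0.03), that of complex IV was 0.17, and those of complexes I and II stayed below 0 (-0.03 and -0.09). The median of complex V also lay above 0 without WT replicate 3 (0.03), and that of complex III without WT replicate 1 (0.04). Over all fits without 1 sample, Uqcrc1 ran from -0.79 to -0.48 and Cox7a2l from -0.51 to -0.20. With all libraries and the correction for GC content and length, Uqcrc1 was at -0.45 and Cox7a2l at -0.34.

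Fold changes were also set out by promoter motif, with no test. The 23 tested members with an NRF-1 core had a median log2 fold change of -0.11, and the 41 without one a median of -0.02. Members with an ETS/GABP motif had a median of -0.06 (15 genes) and those without one of -0.07 (49 genes), and members with a YY1 motif one of -0.11 (7 genes) against -0.06 (57 genes). Sdha and Sdhd, whose promoters are printed above, had log2 fold changes of -0.12 and -0.18, Cox6a1 and Ndufa8 were at -0.06 and -0.22, and Ndufb4 was at 0.52 (SE 0.381).

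The genes that work with the respiratory chain were measured in the same fit, and 0 of them passed the adjusted threshold. Assembly factors, which build the complexes, had 46 tested of 50 in the table and a median log2 fold change of 0.03. At an unadjusted p under 0.05, 1 of the 46 was higher, against 6.79% of all tested genes, and 0 were lower, against 5.21%. The higher gene was Cox16, a factor of complex IV assembly, with 127, 122 and 139 normalized counts in WT and 154, 154 and 234 in Hvem-/-. All Hvem-/- samples lay above all WT samples, with replicate 6 far the highest (log2 fold change 0.47, SE 0.201, adjusted p = 0.345 in edgeR). Its log2 fold change was 0.24 without that library and 0.16 with the correction for GC content and length. Such separation upward was found for 3 of the 46 factors, Cox16 among them, against 8.74% of all tested genes. Next came Ndufaf4, an assembly factor of complex I (0.54, adjusted p = 0.435 in edgeR), Bcs1l, which inserts the Rieske protein into complex III (1.02, adjusted p = 0.438 in edgeR), and 1810043H04Rik, a factor of complex I now named Ndufaf8 (-0.94, adjusted p = 0.539 in edgeR). With that correction Ndufaf4 was at 0.31, Bcs1l at 1.09 and 1810043H04Rik at -0.81.

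The electron carriers, genes for cytochromes, ubiquinone synthesis and enzymes that feed ubiquinone, had 20 tested genes. Their median log2 fold change was -0.18, against -0.0058 over all tested genes, and 14 lay below 0, against 50.8% of all tested genes. The summed level of these carriers was 727 to 752 CPM in WT and 633 to 664 CPM in Hvem-/-, so these sums did not overlap. They were scaled by the read total alone, unlike the sums of the members. Cyc1, cytochrome c1 of complex III, whose symbol the rule does not take in, had 347, 308 and 280.0 normalized counts in WT and 275, 254 and 161 in Hvem-/-. Its groups did not overlap, with replicate 6 the lowest as for Uqcrc1 (log2 fold change -0.44, SE 0.181, adjusted p = 0.321 in edgeR). Dhodh, which feeds electrons from pyrimidine synthesis to ubiquinone, was at -0.89 (adjusted p = 0.493 in edgeR), Coq9, of ubiquinone synthesis, at -0.87 (adjusted p = 0.537 in edgeR) and Pdss1, which makes its side chain, at 0.48 (adjusted p = 0.524 in edgeR). With the correction for GC content and length, Cyc1 was at -0.27, Dhodh at -0.70, Coq9 at -0.71 and Pdss1 at 0.42. Leaving out 1 sample at a time, Cyc1 ran from -0.58 to -0.24. The median of the carriers is given for the main fit only.

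Regulators of mitochondrial biogenesis had 17 tested genes with a median log2 fold change of -0.01. Nrf1 itself was at -0.25 (SE 0.185) and Gabpa, the DNA-binding subunit of GABP, at 0.11 (SE 0.120). Mterfd1, now named Mterf3 and known to restrain transcription of mitochondrial DNA, had the smallest p of these lists. Its normalized counts were 107, 103 and 103 in WT and 141, 154 and 167 in Hvem-/-. The WT samples were close together and all lay below the Hvem-/- samples, but the log2 fold change of 0.55 (SE 0.194, adjusted p = 0.235 in edgeR) did not pass the threshold. Gabpb1, the partner of Gabpa, was at 0.30 (adjusted p = 0.478 in edgeR), the coactivator Pprc1 at -0.30 (adjusted p = 0.580 in edgeR), and Peo1, now named Twnk, the helicase of mitochondrial DNA, at 0.91 (adjusted p = 0.514 in edgeR). The value of Peo1 ran from 0.34 (without Hvem-/- replicate 4) to 1.40 (without WT replicate 1). With the correction for GC content and length, Mterfd1 was at 0.39, Gabpb1 at 0.23, Pprc1 at -0.13 and Peo1 at 1.02.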

How the data were processed

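Total RNA of 6 samples was amplified and sequenced as paired-end reads. The authors aligned reads with STAR and ran DESeq2 (no versions in the sources used here). Tools in the submitters' processing notes are TopHat2 2.0.8b, CASAVA and Cufflinks 2.1.1, with build mm10. The deposited signal is the read count per gene divided by the DESeq2 size factor of the sample, with its mean over samples. The authors' deposited log2 fold changes, Wald score and p-values were not used. Each deposited value (100%) was a whole multiple of the lowest value above 0 in its sample, within a relative tolerance of 1e-06. The reads so recovered went into edgeR 4.0.16 under R 4.3.3 (low-count filter filterByExpr, TMM, robust quasi-likelihood, genotype alone, Benjamini-Hochberg). SE is the absolute log2 fold change divided by the root of the F statistic, and means and SDs are of the deposited values. CPM of members use TMM factors, and summed CPM of the marker and related lists use the read total alone. Testing on simulated data used 200 changed genes, and 9626 genes passed the filter there, with 2 false calls. Counts of samples within a genotype varied beyond sampling noise, with a chi-square of 4.45 to 8.86 for each degree of freedom, and none was counted as a repeat. Coordinates, lengths and GC content come from GENCODE vM21 (GRCm38), from the longest transcript paired with a RefSeq mRNA. Members, lists and motifs were chosen with earlier results of these data known. Named were Tnfrsf14, members with an unadjusted p under 0.05, the member with the most reads per kilobase and that with the lowest p in each complex, isoform groups, the members at both ends of the fold changes, and up to 4 genes of each related list. One member that this rule names is not reported here and is left out of the plots that name genes. Ndufa5, Ndufa13, Ndufs8, Atp5o, Atp5s and the other genes given with values lie outside that rule and were chosen after their values were seen. Alternatives were DESeq2 1.42.0, upper-quartile factors, no or a stricter filter (CPM above 5), limma 3.58.1 on log2(value + 1), an adjusted p of 0.05, a loess correction (span 0.5) for GC content and length, and each sample left out. The fit without the robust option and the median without Atp5s, Atp5sl and Cox4nb were added after seeing the data.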

Additional observations from a re-analysis of the deposited data

How the results depend on the processing

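No member passed the adjusted threshold under any alternative run. With the correction for GC content and length, 2 members were higher at an unadjusted p under 0.05 (2.63%, against 5.16% of all tested genes) and 3 lower (3.95%, against 4.16%), the median of all members was -0.0116, that of complex I -0.0448 and that of complex V -0.0075, and Cox6a1 turned to 0.10. Cox6b1 turned to -0.0121 with upper-quartile factors and to -0.068 with limma. Leaving out 1 sample at a time, the median of the members ran from -0.15 (without Hvem-/- replicate 4) to 0.0367 (without Hvem-/- replicate 2), that of complex I from -0.15 to -0.0349, of II from -0.21 to -0.0705, of III from -0.16 to 0.0799, of IV from -0.12 to 0.17 and of V from -0.12 to 0.0306. The count of lower members at an unadjusted p under 0.05 ran from 1 (without any 1 WT replicate) to 4 (without Hvem-/- replicate 4; 5.26%, against 5.5% of all tested genes), and that of higher members from 0 to 2 (without Hvem-/- replicate 2; 2.63%, against 8.03%). Members whose genotypes did not overlap numbered 12 to 20 (15.8% to 26.3%), against 24.3% to 31.7% of all tested genes, more than 7 because fewer samples separate more easily. In each of these fits and alternatives the members' share lay below that of all tested genes. Log2 fold changes that changed sign on leaving out 1 sample were those of Atp5g3 (-0.0614 to 0.11), Cox6a1 (-0.27 to 0.045), Cox6b1 (-0.19 to 0.32), Cox7b (-0.39 to 0.24) and Uqcrh (-0.19 to 0.091), and of 428 gene values under alternatives 18 reversed, all in these 5 genes. The cause of these changes was not tested. No paired analysis was possible because the genotypes share no replicate number and the sources used here do not say which samples shared a mouse, so every fit treats the 6 samples as unpaired. Depth limits what the low members, such as Uqcr11 and Uqcrq, can show.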
